A study of Mus musculus with 27 samples.

Results

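ChIP-seq mapped NKX2.2 occupancy in a beta-cell line of the mouse, MIN6, and 4276 of the 10749 deposited binding events are absent from the deposited list of 6473 final sites. These 4276 left-out events, 39.8% of all events, were found by matching the position of each event to the final list, and no final site was missing from the event table. The 2 ChIP replicates held 1081974 and 819222 counts over all events, and the left-out events held 27.8% and 28.0% of them. The labels give no genotype, treatment or passage for the MIN6 cells, and say nothing on whether the replicates were separate cultures. The wider study asked what the SD domain of Nkx2.2 does in pancreas and neural progenitors, and its islet RNA-seq was used here for genes near the left-out events. Those libraries are 2 controls and 3 labelled betaSDmut at 8 weeks (an SD-domain mutation in beta cells), and 2 controls and 2 labelled betaKO at 4 weeks (an Nkx2.2 knockout in beta cells). The labels name neither the Cre driver nor the strain, and do not say whether each library is 1 animal.

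NKX2.2 is a homeodomain transcription factor that islet cells need for beta-cell formation and identity, and it can both repress and activate its targets. NKX2-class homeodomains recognise a short core, CACTT or CACTC. RFX factors, a separate family with roles in islet cells (RFX6 among them), recognise the X-box, an inverted repeat whose arms read GTTGCC or GTTGCT, or on the other strand GGCAAC or AGCAAC. GEM, the caller that made the events, combines the shape of the read pile-up with short enriched words when it places an event. Event position and sequence are therefore not independent measurements in these data.

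The left-out events were divided into 2 kinds by counts, and these kinds also differed in position, as described below. The following windows of GRCm38 (the same sequence as mm10, the build in the submitters' processing notes) show both kinds. Capitals mark X-box arms and NKX2 cores on either strand, and the windows of single events run from 50 bases before the deposited position, plus strand. The first 8 are left-out events with few counts near genes described below. They are shown because an X-box arm stands at the same place in each, in 6 on the forward strand and in 2 (Tle4 and Bcmo1) on the reverse strand.
Fhdc1 event, chr3:84436559-84436658: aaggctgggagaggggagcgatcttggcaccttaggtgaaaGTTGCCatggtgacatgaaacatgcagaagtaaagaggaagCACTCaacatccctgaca
Rgs2 event, chr1:143990459-143990558: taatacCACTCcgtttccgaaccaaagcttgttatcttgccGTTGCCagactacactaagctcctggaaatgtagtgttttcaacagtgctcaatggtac
Maob event, chrX:16812488-16812587: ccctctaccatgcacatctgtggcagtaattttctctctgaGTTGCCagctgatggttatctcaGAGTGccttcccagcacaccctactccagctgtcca
Cdh7 event, chr1:109972589-109972688: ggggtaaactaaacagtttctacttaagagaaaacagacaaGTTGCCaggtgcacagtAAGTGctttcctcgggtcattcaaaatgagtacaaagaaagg
Man2a1 event, chr17:64580247-64580346: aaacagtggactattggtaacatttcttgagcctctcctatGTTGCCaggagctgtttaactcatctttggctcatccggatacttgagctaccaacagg
Gm973 event, chr1:59525894-59525993: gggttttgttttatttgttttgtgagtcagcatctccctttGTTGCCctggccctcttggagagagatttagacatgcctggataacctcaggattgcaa
Tle4 event, chr19:14590357-14590456: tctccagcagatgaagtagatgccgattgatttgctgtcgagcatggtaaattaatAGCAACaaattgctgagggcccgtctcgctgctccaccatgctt
Bcmo1 event, chr8:117069776-117069875: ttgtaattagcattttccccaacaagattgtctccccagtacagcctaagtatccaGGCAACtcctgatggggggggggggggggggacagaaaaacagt

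The next window holds the left-out event with the most counts and the final site 56 bp from it, with 30 bases on each side. It is shown because both members of the pair sit on copies of 1 stretch: the longest run shared by the 2 surrounding windows was 34 bases, placed alike relative to each event, and each copy carries GGCAAC.
Pair at Pcgf5, chr19:36377857-36377972: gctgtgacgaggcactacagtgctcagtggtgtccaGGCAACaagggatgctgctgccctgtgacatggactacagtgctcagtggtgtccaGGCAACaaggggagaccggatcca
A second pair of a left-out event and a final site, 59 bp apart on chromosome 5, shares a longest run of only 9 bases. Its sequence has AGCAAC at 2 places, and there the arm stands at the common place only at the left-out event.
Pair near Klhl7, chr5:24078975-24079093: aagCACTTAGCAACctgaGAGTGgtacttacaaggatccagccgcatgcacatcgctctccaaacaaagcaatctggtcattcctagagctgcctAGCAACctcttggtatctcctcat
By contrast, the left-out event with the highest mean log2 CPM among those over 500 bp from any final site, in an intron of Papss2, holds neither an arm nor a core within its 100 bp window.
Papss2 event, chr19:32604560-32604659: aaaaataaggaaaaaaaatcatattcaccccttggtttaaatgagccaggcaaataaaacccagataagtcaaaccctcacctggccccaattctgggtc

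Counts separated the left-out events from the final sites by a sharp edge, except for a group that lay beside final sites. No final site had fewer than 49 counts in replicate 1 or 37 in replicate 2, which is 45.3 and 45.2 CPM (counts scaled to a total of 1e+06 over all events). Of the left-out events, 2989 (69.9%) lay below 1 or both of these lowest final counts and are called low-count events here. The other 1287 (30.1%) reached both and are called neighbour events, because each shares a chain of close events with a final site. This division was drawn after the counts were seen. The rule by which the authors chose final sites is not given in the sources used here, and differences in counts between these classes follow from the division.

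The final sites closest to the edge had 49 and 49, 49 and 43, and 50 and 37 counts in replicates 1 and 2. The left-out events closest to it from below had 48 and 39, 48 and 43, and 48 and 40 counts. At the lowest values, 59 final sites had exactly 49 counts in replicate 1 and 74 had exactly 37 in replicate 2, so the edge cuts through a dense part of the distribution. Of the low-count events, 1853 were below in both replicates, 629 in replicate 1 only and 507 in replicate 2 only, so that 1136 (38.0%) reached the lowest final count in 1 of the 2 libraries.

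Median counts in replicates 1 and 2 were 88 and 67 at final sites, 107 and 81 at neighbour events and 40 and 31 at low-count events. Neighbour events thus had higher median counts than the final sites as a whole. However, the 500 bp counting windows of 1112 neighbour events (86.4%) overlapped that of a final site. Their counts therefore include reads also counted at final sites. Low-count events ranged from 15 to 91 counts in replicate 1 and from 10 to 67 in replicate 2, with middle values of 33 to 46 and 26 to 36. The mean CPM of the 2 replicates had a median 1.92 times as high at final sites as at all left-out events, and 2.12 times as high as at left-out events over 500 bp from every final site. No input counts were part of the event table, so enrichment over input is not given for any event.

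**Figure D1:**
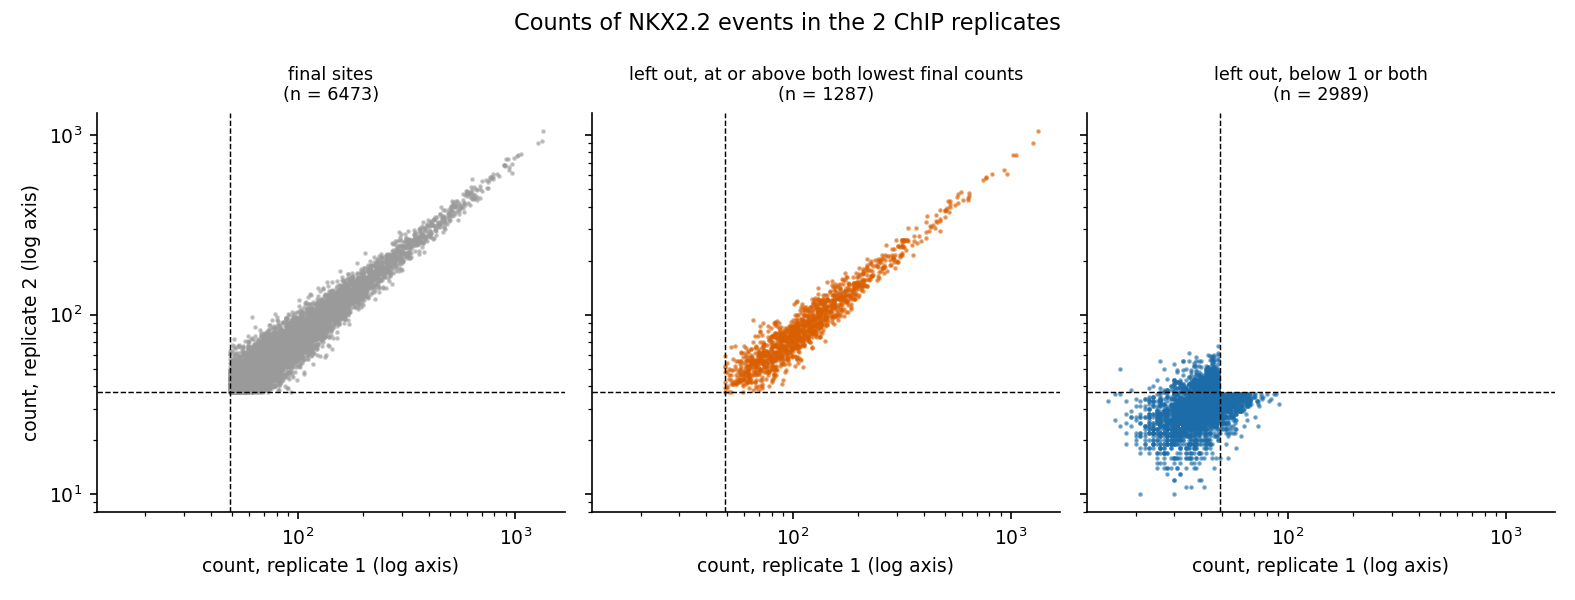
Counts per event in replicate 1 (horizontal, log axis) and replicate 2 (vertical, log axis), 1 point per event, for final sites, neighbour events and low-count events. Dashed lines stand at the lowest final counts, 49 and 37; final sites and neighbour events fill the same corner, and low-count events fill the rest.

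Agreement between the replicates was as close at neighbour events as at final sites, and lower at low-count events, whose counts span a narrow range. Most neighbour events share reads with a final site through overlapping counting windows, so their agreement is not independent of that at final sites. The Pearson correlation of log2(CPM + 1) between the replicates was 0.916 across all left-out events, 0.961 across neighbour events and 0.346 across low-count events, against 0.957 across final sites. Spearman's rho was 0.772, 0.934, 0.368 and 0.910 in the same order. These are correlations across events within the same 2 libraries, and events are not independent replicates. The edges themselves also truncate both classes, so the coefficients of classes with different ranges are not comparable.

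A measure that does not need a wide range gives the same order, but it is not free of the division by counts. Counting error makes replicate ratios wider where counts are lower. The median absolute log2 ratio between replicates was 0.13 at neighbour events, 0.15 at final sites and 0.28 at low-count events, and 98.7% of low-count events agreed within 2-fold. The squared difference divided by its Poisson variance, which is 1 on average when only counting error acts, had a mean of 1.03 at neighbour events and 1.04 at final sites. At low-count events the mean was 1.43. Among low-count events with 60 to 69 counts in total it was 1.17, and with 86 to 99 counts it was 2.00, against 0.293 at final sites with 86 to 99 counts. Near the edge an event stays out when 1 replicate is low and enters only when both are high enough, so these values are shaped by the division and cannot be read as measurement quality.

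The largest replicate differences among left-out events with at least 20 counts in each replicate were all at low-count events. In an intron of Farp1 on chromosome 14 (position 121103520), replicate 1 had 73 counts and replicate 2 had 24. In an exon of Mpp6 on chromosome 6 (50113035) the counts were 61 and 21, and in an intron of Unc5cl on chromosome 17 (48536343) they were 91 and 32. All 3 reached the lowest final count of replicate 1 and missed that of replicate 2. In the other direction an event in an intron of Sptbn1 on chromosome 11 (30149831) had 26 counts in replicate 1 and 55 in replicate 2. Events near Tm4sf1 on chromosome 3 (57343012) and in an intron of Zbtb20 on chromosome 16 (42987636) had 27 and 50, and 30 and 53. These 3 reached the lowest final count of replicate 2 only.

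Low-count events lay farther from the nearest final site than neighbour events, but distance is not independent of the division by counts. Reads were counted in 500 bp, so an event close to a final site also counts reads of that site. Such an event is less likely to fall below the lowest final counts. Within 500 bp of a final site there were 12 low-count events, and within 100 bp there were 0. Their scarcity there cannot be told apart from this sharing of reads. The median distance over all left-out events was 34419 bp and the smallest was 8 bp. Neighbour events lay at a median of 222 bp and at most 1471 bp from a final site, and 1278 of the 1287 lay within 1000 bp. Low-count events lay at a median of 87608 bp, with middle values of 27226 to 213357 bp and a largest distance of 7401105 bp. Only 44 low-count events (1.47%) lay within 1000 bp of a final site, and 2866 had no other event of any kind within 1000 bp. For scale, the median distance from a final site to the next final site was 59350 bp. Of all left-out events, 1125 (26.3%) were within 500 bp of a final site, 733 (17.1%) within 250 bp and 121 (2.83%) within 100 bp.

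**Figure D2:**
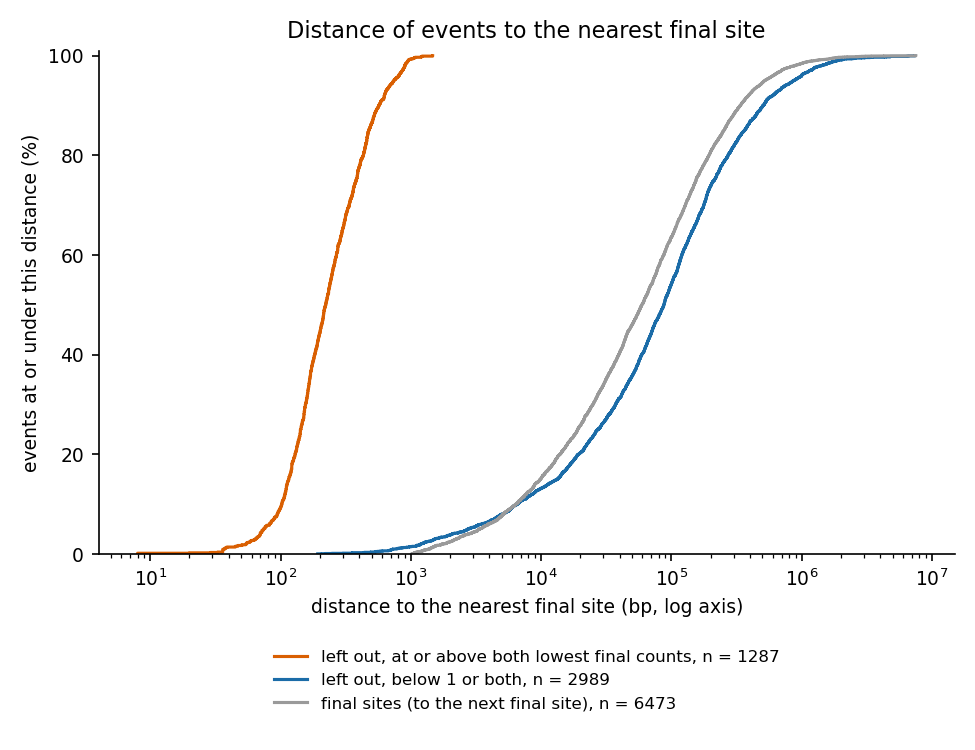
Cumulative percentage of events (vertical) by distance to the nearest final site in bp (horizontal, log axis) for neighbour events, low-count events and, to the next final site, final sites. Neighbour events rise around their median of 222 bp and end at 1471 bp, and low-count events lie to the right of final sites over most of the range, with medians of 87608 and 59350 bp.

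Events no more than 1000 bp apart were joined into chains. There were 9376 chains, of which 8112 held 1 event, and none held more than 4. Each of the 6473 chains with an event at or above both lowest final counts held exactly 1 final site. The 2903 other chains held none, which follows from the definition, because every final site reaches both lowest final counts. The 9 neighbour events over 1000 bp from a final site were joined to it through another left-out event. The smallest distance between 2 final sites was 1011 bp. With chains joined at 500 bp, 6473 of 6622 such chains held exactly 1 final site, and at 1500 bp it was 6371 of 6422. These distances were chosen after the data were seen.

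The event kept as final was often not the higher of a close set. Of the 1188 chains with 2 to 4 events at or above both lowest final counts, the event with the highest mean CPM was the final site in 736 (62.0%). Among the 1091 pairs, the final site had the lower coordinate in 558 (51.1%). Compared with its nearest final site, a neighbour event had higher counts in both replicates, in CPM, in 215 cases (16.7%), lower in both in 528 and neither in 544. The median log2 difference between neighbour and final was close to 0 (-0.0013) at up to 250 bp (729 events), -0.05 at 250 to 500 bp (384 events) and -0.43 at 500 to 1000 bp (165 events). Reads were counted in 500 bp, and the counting windows of 1112 neighbour events (86.4%) overlapped that of a final site, so close pairs share reads.

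The neighbour events with the most counts show this. At the chromosome 19 pair printed above, in an intron of Pcgf5, a Polycomb ring-finger gene, the left-out event (36377887) had 1342 counts in replicate 1 and 1050 in replicate 2. Its final site (36377943) had 1340 and 1051. At the chromosome 5 pair the left-out event (24079064) had 1265 and 903 counts and the final site (24079005) had 1272 and 906. On chromosome 17 the left-out event (25175647) had 1063 and 779 counts, 176 bp from the start of Gm38655, and the final site 153 bp away had 1061 and 781. In all 3 pairs the members differ by fewer counts than the Poisson error of either.

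Neighbour events over 500 bp from a final site had counts of their own and were lower than that site in the 5 highest cases. The Papss2 event printed above had 228 counts in replicate 1 and 199 in replicate 2, against 325 and 221 at the final site 953 bp away. An event between genes on chromosome 2 (134455982) had 250 and 159 counts, against 473 and 333 at its final site 506 bp away. The other 3, on chromosomes 6 (100127554), 11 (77181700, in an intron of Efcab5) and 19 (17078459, in an intron of Prune2), had 214 to 227 counts in replicate 1 and 156 to 158 in replicate 2. Each of these 5 events by itself had more counts than the median final site.

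X-box arms stood at a fixed place in left-out events, as they did in final sites. GTTGCC or GTTGCT began 9 bases before the deposited position in 534 left-out events (12.5%), and its reverse complement began 6 bases after it in 577 (13.5%). Together 1110 left-out events (26.0%, 95% Wilson interval 24.7 to 27.3%, counting error only) had an arm at 1 of these places. By class it was 835 of 2989 low-count events (27.9%), 275 of 1287 neighbour events (21.4%) and 1999 of 6473 final sites (30.9%). Between 150 and 250 bp from low-count events an arm on either strand began at a given base in 0.0773% of events on average, and on 1 strand in at most 0.201%. The forward and reverse places mirror each other about the base 1 after the deposited position; whether deposited positions count from 0 or from 1 is not stated.

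**Figure D3:**
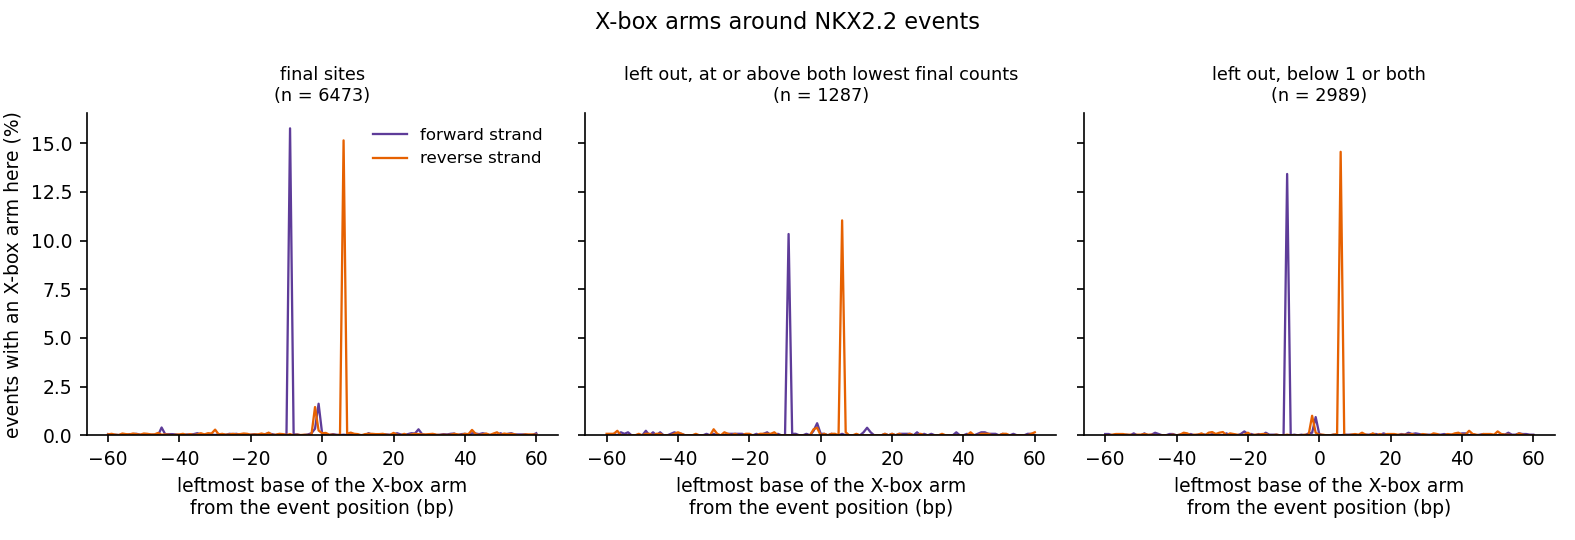
Percentage of events with an X-box arm (GTTGCC or GTTGCT on the forward strand, GGCAAC or AGCAAC on the reverse strand) whose leftmost base lies at the given distance in bp from the event, for final sites, neighbour events and low-count events. Each class has 1 sharp peak per strand, at -9 and 6 bp, and a much smaller one close to the position itself; for low-count events the peaks reach 13.4% and 14.6%.

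Fewer counts did not go with fewer X-box arms among low-count events. Within 100 bp windows centred on the event, 33.2% of low-count events held an arm on either strand, against 31.6% of the 1621 final sites with the fewest counts and 7.21% of all 26474739 such windows of the genome. Low-count events under their own median CPM had an arm at the fixed place in 28.9%, and those at or over it in 26.9%. The share was higher among the 1619 final sites with the most counts, at 42.8%. Both arms of an X-box, facing each other with 1 base between them, were found in 40 low-count events (1.34%), 7 neighbour events (0.544%) and 132 final sites (2.04%). In the 1091 pairs the arm stood at the fixed place in both members in 73, in the final site only in 192, in the left-out event only in 174 and in neither in 652. The X-box arm search was added after the data were seen. Because GEM reads sequence, these shares describe where events were placed, and RFX binding cannot be told apart from that placement. RFX binding was not tested.

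NKX2 cores were more frequent in left-out events than in the genome and were spread more loosely than the X-box arms. CACTT or CACTC was present in the 100 bp window of 51.5% of left-out events (neighbour 53.4%, low-count 50.7%), 54.6% of final sites and 34.9% of genome windows. The 2 forms differed: CACTC was in 34.7% of left-out and 40.7% of final windows against 16.9% of the genome, while CACTT was in 25% and 22.5% against 21.6%. A core lay within 10 bp of the position in 14.97% of left-out events and 18.2% of final sites. Per 10 bp bin the frequency of cores at the centre was 1.58 times that at 150 to 250 bp in left-out events and 1.93 times in final sites. Either an NKX2 core or an X-box arm was present in 69.1% of left-out windows, 75.9% of final windows and 39.9% of the genome, where the last is not matched for base composition.

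Other motifs searched were about as frequent in left-out events as in final sites. The E-box CAGATG, a form bound by NEUROD1 with its partners, was in 17.5% of left-out and 17.9% of final windows against 7.61% of the genome. CAGCTG was in 10.03%, 11.2% and 3.58%, and the FOXA word TGTTTAC in 3.20%, 4.02% and 1.47%. TAATTA was in 5.31%, 4.60% and 3.62%, and the AP-1 word TGANTCA in 5.43%, 4.94% and 2.93%. CCAAT stood below the genome in both sets, at 12.3% and 12.5% against 16.0%. The words were counted on both strands and can overlap one another. Mean GC content was 44.9% at low-count events, 47.5% at neighbour events, 48.1% at final sites and 41.7% in the genome, and repeat-masked bases made up 9.47%, 8.56%, 8.88% and 36.4% of the sequence.

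Left-out events lay farther from transcription starts than final sites. A protein-coding start (GENCODE M21) lay within 1000 bp of 66 low-count events (2.21%), 68 neighbour events (5.28%) and 429 final sites (6.63%), and the median distances were 67075, 50970 and 44093 bp. The 1621 final sites with the fewest counts were between, with 4.13% within 1000 bp. Introns held 48.1% of left-out events and 47.9% of final sites, exons held 3.55% and 5.05%, and the rest lay between protein-coding genes.

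Chromosomes differed widely in how many of their events had few counts. On chromosome X, 189 of 339 events (55.8%) were low-count events, and on chromosome 19 it was 20 of 287 (6.97%). Chromosomes 16 (11.3%), 5 (15.7%), 17 (17.9%) and 11 (19.1%) were also at the low end, and chromosome 10 (36.8%) was the highest autosome. Neighbour events per 100 final sites varied less, from 15.1 on chromosome 19 to 23.9 on chromosome 2. Low-count events on X had median counts of 35 and 28, against 46.5 and 30.5 on chromosome 19. Final sites on X were sparse, at 7.54 per 10 Mb against 37.8 on chromosome 19, while low-count events were at 11.1 and 3.26 per 10 Mb. The number of copies of each chromosome in these MIN6 cells and in input DNA was not measured here, and its part in these shares was not tested.

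**Figure D4:**
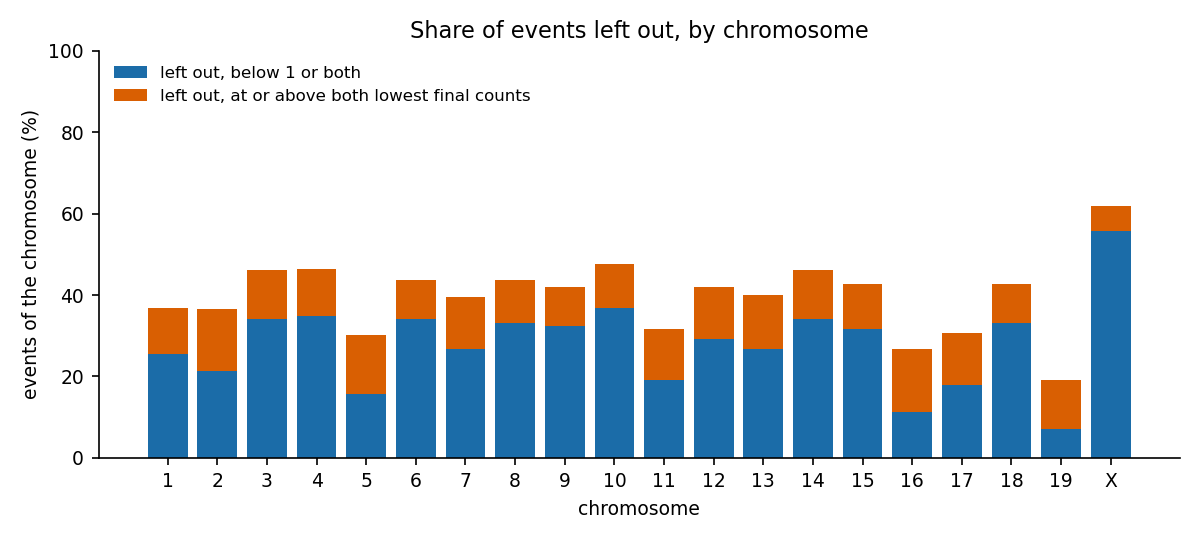
Percentage of the events of each chromosome (horizontal) that were left out, as stacked bars for low-count and neighbour events. Low-count events range from 6.97% on chromosome 19 to 55.8% on chromosome X.

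Left-out events of both kinds lay at genes of an islet list. From a list of 63 islet genes, of which 62 had a start in the annotation, 35 had a left-out event within 100000 bp whose nearest protein-coding start was theirs. These were 37 neighbour and 23 low-count events, and 32 of the 35 genes also had a final site assigned in the same way. Of all left-out events, 62.7% lay within 100000 bp of a protein-coding start, against 70.1% of final sites. Among the 2680 left-out events within that reach of any protein-coding start, 841 were neighbour events. The difference from the islet list was not tested, and the list was chosen with earlier results of these data known. The share of all protein-coding genes with such an event was not computed. Neither the 35 genes nor the classes of their events are therefore read as a result about islet genes. At Kcnj11 and Abcc8, which encode the 2 subunits of the beta-cell ATP-sensitive potassium channel, the highest left-out events (chromosome 7, 46123371 and 46145965, both in introns of Abcc8) had 318 and 262, and 310 and 237 counts in replicates 1 and 2. Their final sites lay 124 and 64 bp away. At Ins1, one of the mouse insulin genes, a neighbour event 253 bp from the start (chromosome 19, 52264044) had 191 and 148 counts, and the final site 244 bp from it had 197 and 151.

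Among transcription factor genes, the highest left-out event at Rfx6 (chromosome 10, 51685529, in an annotated UTR) had 297 and 260 counts, exactly those of its final site 20 bp away. Mafa, an activator of insulin transcription, had one in an intron of Zc3h3 with 164 and 124 counts, 227 bp from its final site. Events at Myt1, Hhex and St18, which encode transcription factors, had 130 to 263 counts in replicate 1 and 122 to 171 in replicate 2. For the secretory genes Chga and Scg3 (granins), Pcsk1 (a prohormone convertase), Iapp (amylin) and Snap25 (a SNARE protein of exocytosis), the counts were 152 to 262 and 115 to 190. Slc2a2 (the glucose transporter GLUT2) had 215 and 147, and Tle3, which encodes a Groucho-family corepressor, had 173 and 121. All 15 of the highest-ranked genes had neighbour events, each with a final site at most 519 bp away. The genes were ranked by the mean log2 CPM of these events, and the classes were divided by counts. That all 15 were neighbour events therefore follows largely from the ranking.

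Only Ins2, Irx2 and Foxo1 had a left-out event and no final site among the genes of the list. These 3 were chosen after their values were seen. At Ins2, the other mouse insulin gene, the event stood 19 bp from the start (chromosome 7, 142743400) with 26 counts in each replicate, and the nearest final site was 62938 bp away. Irx2, a homeobox gene, had an event 31972 bp from its start (chromosome 13, 72596848) with 56 and 35 counts, below the lowest final count in replicate 2 only. Foxo1, which encodes a factor that insulin signalling keeps out of the nucleus, had one 87422 bp away (chromosome 3, 52355758) with 43 and 33 counts.

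In the authors' deposited table that joins sites to genes, 2558 coordinates were listed, all of them final sites and none a left-out event. The final sites of the chains of 586 neighbour events (45.5%) were among them, against 39.5% of all final sites.

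At a reach of 50000 bp, the share of genes near left-out events and far from final sites that passed the test in mutant islets was close to that of all genes. There were 1248 protein-coding genes with a start within 50000 bp of a left-out event and over 50000 bp from every final site. All of them had a low-count event within 50000 bp. In 8-week islets, 80 of the 1006 that were tested passed an adjusted p of 0.05 (edgeR quasi-likelihood test, Benjamini-Hochberg over 15413 genes), 47 higher and 33 lower in betaSDmut. That is 7.95%, against 7.94% of all genes tested (4.07% higher and 3.87% lower), 10.9% of genes near a final site and 7.08% of genes near neither. The median log2 fold change of the 1006 genes was 0.02, against 0.01 over all genes. In 4-week islets, 19 of 989 passed (1.92%; 10 higher and 9 lower), against 1.56% of all 14942 genes (0.810% and 0.750%), 2.40% near a final site and 1.24% near neither. Both shares lie near the background, and nothing about the left-out events is read from them. The 8-week share depended on the reach. With starts within 10000 bp of a left-out event and over 10000 bp from every final site, a set that also takes in genes 10000 to 50000 bp from a final site, 42 of 347 passed at 8 weeks (12.1%; 30 higher and 12 lower), against 12.5% near a final site, 7.78% near neither and 7.94% of all genes. At 4 weeks 4 of 337 passed at that reach (1.19%), against 1.56% of all genes. At 100000 bp the shares were 7.67% of 1251 genes at 8 weeks and 1.39% of 1223 at 4 weeks. The differences between these shares were not tested.

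These counts depended on which libraries entered the fit. Leaving out a control, or any library at 4 weeks, leaves 1 library in a group. In those fits lost power and dependence on the library left out cannot be told apart. Without control 1 or 2 at 8 weeks, 2 and 1 near genes passed in place of 80, and without betaSDmut replicate 1 or 2 it was 205 and 33. At 4 weeks, without control 1 or 2, 0 passed in edgeR, with 106 and 103 at an unadjusted p under 0.05, and without betaKO replicate 1 or 2 it was 32 and 4; DESeq2 with all libraries called 52. Of the 10 genes named at 8 weeks, 8 and 9 lost their call without control 1 or 2, and at 4 weeks all 10 did so without either control and 7 without betaKO replicate 2. Nkx2-2 itself was at 101.6 and 88.1 CPM in 8-week controls and at 102.5, 83.0 and 80.8 in betaSDmut libraries. It was at 104.2 and 77.2 CPM in 4-week controls and at 94.1 and 65.5 in the libraries labelled betaKO, so the groups overlap and the libraries labelled betaKO did not show a lower Nkx2-2 level (log2 fold change -0.18, adjusted p = 0.779, edgeR). Reads outside a deleted part would not show a deletion. Ins2 stood at 109061 CPM or more in all 9 islet libraries. The summed level of 16 acinar markers was 9363 to 15273 CPM in 8-week controls and 1097 to 12591 in betaSDmut, and 7337 to 13210 against 18492 to 50438 at 4 weeks, and 0 acinar markers passed in edgeR (0 and 6 at an unadjusted p under 0.05 at 8 and 4 weeks; 0 and 2 in DESeq2). Of 4 stellate markers 2 passed as higher at 4 weeks, where their sum was 172 to 184 CPM in controls and 272 to 343 in the libraries labelled betaKO, while at 8 weeks 0 passed in edgeR (2 at an unadjusted p under 0.05; 1 in DESeq2) and the sum was 162 to 201 CPM against 85.6 to 129.9 in betaSDmut. The sum of 5 ductal markers was 225.3 to 306.6 CPM in 8-week controls and 144.6 to 222.6 in betaSDmut, with 1 marker lower, and 252.3 to 296.2 against 303.5 to 316.6 at 4 weeks, with 0 passing in edgeR (1 at an unadjusted p under 0.05; 1 in DESeq2). Of 3 macrophage markers tested 1 was lower at 8 weeks (sum 24.6 to 26.8 CPM against 14.3 to 71.8) and 0 passed at 4 weeks (22.9 to 47.8 against 9.30 to 21.3; 1 at an unadjusted p under 0.05 and 1 in DESeq2). Of 4 endothelial markers 0 passed in edgeR at either age, with 1 at 8 weeks and 4 at 4 weeks at an unadjusted p under 0.05 (0 and 1 in DESeq2), and their sum was 344.4 to 356.3 CPM against 288.9 to 351.2 at 8 weeks and 402.6 to 459.3 against 283.1 to 337.7 at 4 weeks. The part of these cells in the values below was not tested, and in bulk islets fewer cells of a type and less RNA per cell cannot be told apart.

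Tle4, which encodes a Groucho-family corepressor, rose in both comparisons. A low-count event lies inside the gene, 7644 bp from its start, with 58 counts in replicate 1 and 29 in replicate 2, and its window is printed above. In 8-week islets Tle4 stood at 11.6 and 12.7 CPM in controls and at 39.3, 42.8 and 37.6 in betaSDmut, with no overlap (log2 fold change 1.71, SE 0.10, adjusted p = 0.00129, edgeR). At 4 weeks it stood at 8.91 and 9.79 CPM in controls and at 22.7 and 30.3 in the libraries labelled betaKO (1.504, SE 0.18, adjusted p = 0.0344, edgeR). The 2 comparisons use different control libraries.

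The other largest increases at 8 weeks were at Slc6a20a, Gm2115, Gm973 and Plod2. Slc6a20a, a transporter of proline-like amino acids, has a low-count event 2697 bp from its start (31 and 33 counts) and went from 1.70 and 0.690 CPM to 20.4, 18.6 and 14.5 (log2 fold change 3.91, adjusted p = 0.00633, edgeR). Gm2115, a predicted gene, went from 2.64 and 2.72 CPM to 21.4, 35.8 and 21.3. Gm973, also a predicted gene, was at 0.189 and 0.215 CPM in controls and at 2.26, 8.78 and 9.31 in betaSDmut, and 1 mutant library stood well below the others. Plod2, which encodes a collagen lysyl hydroxylase, rose from 4.77 and 6.55 CPM to 16.8, 20.1 and 17.3. At 4 weeks Slc6a20a, Gm2115 and Plod2 did not pass (log2 fold changes 2.37, 0.70 and 0.49; adjusted p = 0.473, 0.353 and 0.411, edgeR), and Gm973 was not among the genes tested.

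The largest decreases at 8 weeks were at Lphn3, Csmd2, Bcmo1, Rgs2 and Maob. Lphn3, an adhesion G-protein-coupled receptor, was at 32.1 and 47.5 CPM in controls and at 12.3, 8.41 and 12.5 in betaSDmut (log2 fold change -1.85, SE 0.24, adjusted p = 0.0139, edgeR). Rgs2, a regulator of G-protein signalling, fell from 196.2 and 208.2 CPM to 101.6, 63.1 and 90.9, and its event 13652 bp away had 55 and 23 counts. Maob, the monoamine oxidase B gene on chromosome X, fell from 219.4 and 255.6 CPM to 135.5, 92.7 and 85.0. Bcmo1, a carotenoid-cleaving oxygenase, and Csmd2, a large membrane protein with CUB and sushi domains, had log2 fold changes of -1.49 and -1.58. At 4 weeks Lphn3, Csmd2, Bcmo1, Rgs2 and Maob did not pass. Their log2 fold changes were -0.39, -0.54, -0.11, -0.03 and -0.57 (adjusted p = 0.304, 0.697, 0.765, 0.995 and 0.0895, edgeR). With replicate number as a block at 8 weeks, Csmd2, Lphn3, Maob and Rgs2 lost their call (adjusted p = 0.0811, 0.0842, 0.115 and 0.0845, edgeR). Bcmo1 kept its call.

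At 4 weeks Mctp2, Nxph1, Man2a1 and Rcn1 rose beside Tle4. Man2a1, a Golgi mannosidase of glycoprotein maturation, went from 51.9 and 56.7 CPM to 133.4 and 131.2 (log2 fold change 1.29, SE 0.09, adjusted p = 0.0173, edgeR). Rcn1, a calcium-binding protein of the endoplasmic reticulum, went from 23.7 and 27.6 CPM to 63.2 and 59.9. Nxph1, a secreted ligand of neurexins, went from 4.26 and 5.14 CPM to 11.8 in both libraries. Cdh7 (a cadherin), Defb1 (a defensin), Fbxl2 (an F-box protein), Fhdc1 (a formin-domain protein) and Tmem215 (a transmembrane protein) fell, with log2 fold changes of -1.91, -1.64, -1.05, -1.03 and -0.97. Cdh7 went from 9.75 and 12.6 CPM to 2.76 and 3.17, and its event 9792 bp before the start had 50 and 35 counts. At 8 weeks Nxph1, Cdh7, Defb1, Fbxl2 and Tmem215 did not pass. Their log2 fold changes were -0.45, -1.24, -0.96, -0.53 and -1.59 (adjusted p = 0.331, 0.260, 0.103, 0.109 and 0.0715, edgeR), so Nxph1 had the opposite sign. Mctp2 did not pass at 8 weeks either and is described below. With replicate number as a block at 4 weeks, Nxph1 and Defb1 lost their call (adjusted p = 0.0613 and 0.0719, edgeR).

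Near genes that passed in both comparisons included Asph, Fhdc1, Flcn, Gstm1, Man2a1, Rcn1, Syt9 and Tle4, each with the same sign in both. Fhdc1 was at 54.9 and 50.3 CPM in 8-week controls and at 30.5, 25.7 and 25.3 in betaSDmut, and at 50.5 and 55.5 CPM against 25.02 and 26.8 at 4 weeks. Man2a1 was at 84.6 and 101.03 CPM against 161.3, 224.2 and 173.01 at 8 weeks. Of the 19 distinct genes named from either comparison, the nearest left-out event lay inside the gene in 9, and 48.04% and 3.51% of all low-count events lay in an intron or an exon. It carried an X-box arm at the fixed place in 8, those printed above, against 27.9% of all low-count events.

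**Figure D5:**
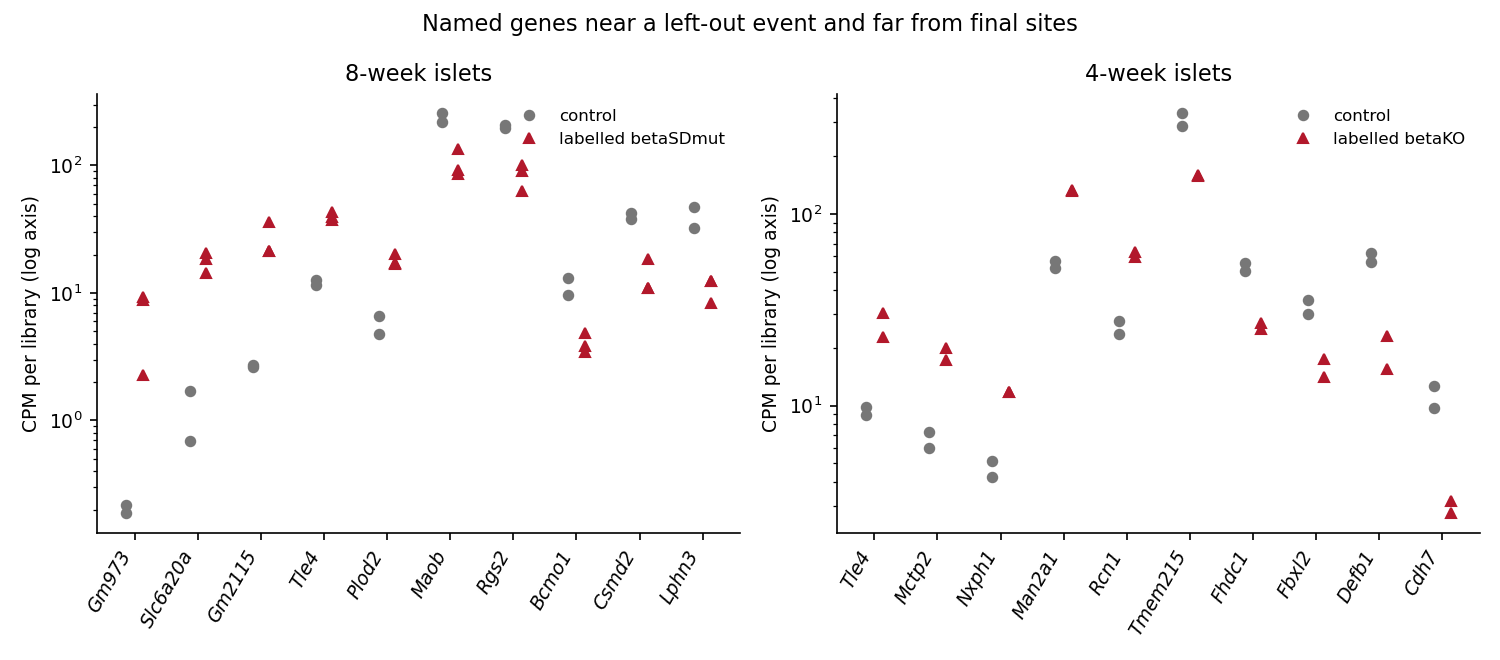
CPM per library (vertical, log axis) of the named genes near a left-out event and far from final sites, for 8-week islets (control, 2 libraries; betaSDmut, 3) and 4-week islets (control, 2; labelled betaKO, 2). Each point is 1 library. Genes were chosen among called genes whose groups do not overlap, so their separation follows from the choice; Tle4 appears in both panels at 11.6 and 12.7 CPM against 37.6 to 42.8, and 8.91 and 9.79 against 22.7 and 30.3.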

How the data were processed

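The members and gene lists were chosen with earlier results of these data known. The authors deposited whole-number read counts in 500 bp at every GEM event for 2 replicates, and log2 CPM values for the final sites, per the deposited description. The 2 columns of final log2 values share a lowest value of 5.97, a median of 6.82 and a highest value of 10.8, and they were used only to list the sites. The build was mm10, per the submitters' processing notes; aligner, peak settings and the rule for final sites are not given in the sources used here. Event CPM were computed from event totals, with a pseudocount of 1 CPM on the log2 scale. Sequences and gene models came from GRCm38 and GENCODE M21. Islet genes were read counts that the authors deposited without normalization, per the deposited description; totals were 12398041 to 32385406 per library, and the 4-week samples carry the label genomic DNA although their columns hold gene counts. Of 26487 symbols, 20573 matched a protein-coding start, 1730 of them through an older or newer symbol.

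Counts were tested within each age with edgeR 4.0.16 in R 4.3.3 (TMM, filterByExpr, robust quasi-likelihood, Benjamini-Hochberg at 0.05). The fit was tested on simulated counts with 200 genes changed by a log2 size of 2. At 8 weeks 81.25% of these were recovered and 12.4% of calls were false. At 4 weeks the values were 78.75% and 14.6%. The false shares were above the level that the threshold of 0.05 aims for, so calls at this threshold hold more false ones than it states. Alternatives were DESeq2 1.42.0, RLE factors, no filter, a replicate block, leaving out each library, and other distances, windows and pseudocounts. The X-box search and the chain distances were added after the data were seen. P-values measure the spread between these libraries, which may be technical. Genes with overlapping or near-identical copies are uncertain, because strand and counting rule are not stated.

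Named events were the 5 highest left-out events over 500 bp from a final site, the 3 highest within 500 bp, the 3 largest replicate differences each way among events with 20 counts in each replicate, and the highest event of up to 15 islet genes. Named genes were the 5 largest called changes each way near a left-out event and not a final site, whose groups do not overlap and whose mean log2 CPM is 2 or more.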

Additional observations from a re-analysis of the deposited data

Results flagged for a closer look

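Mctp2, which encodes a membrane protein with C2 domains, moved in opposite directions in the 2 islet comparisons, with no overlap between groups in either. At 4 weeks it stood at 6.01 and 7.31 CPM in controls and at 17.3 and 20.04 in those labelled betaKO (log2 fold change 1.49, adjusted p = 0.0331, edgeR). At 8 weeks it stood at 10.4 and 9.91 CPM in controls and at 7.72, 7.89 and 9.06 in betaSDmut (log2 fold change -0.31, adjusted p = 0.186, edgeR), which did not pass. The difference between the 2 effects was not tested, and age, genotype and control libraries differ between them. Its low-count event, in an intron of the gene, had 29 and 18 counts.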

How the results depend on the processing

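The ratio of median CPM of final to left-out events ranged from 1.91 to 1.96 without either replicate and was 2.12 for events over 500 bp from a final site. The replicate correlation of left-out events was 0.928 with a pseudocount of 10 CPM and 0.590 over 500 bp from a final site. The share near a final site was 17.1% within 250 bp and 30.9% within 1000 bp; the share with an NKX2 core was 30.4% in 50 bp and 72.9% in 200 bp windows; the share with an X-box arm at the fixed place was 27.7% over 500 bp from a final site. Chains joined at 500 bp held exactly 1 final site in 97.7%. DESeq2 called 2009 genes at 8 weeks and 806 at 4 weeks, in place of 1224 and 233, and 138 and 52 near genes in place of 80 and 19. Without a filter the 4-week count was 372. Starts within 10000 bp gave 42 near genes of 347 at 8 weeks (12.1%, against 7.95% at 50000 bp) and 4 of 337 at 4 weeks (1.19%). Leaving out 1 library gave 37 to 2765 genes at 8 weeks and 4 to 478 at 4 weeks, with 1 to 205 and 0 to 32 near genes. Replicate numbers were not taken as pairs, since the correlations of same-numbered libraries were -0.084 and -0.126 at 8 weeks and -0.039 at 4 weeks; with the replicate block 757 genes and 50 near genes were called at 8 weeks, and 263 and 20 at 4 weeks. The causes were not tested. No named gene changed direction in 170 refits, and 58 of these refits did not call it. Named genes were chosen as called genes whose groups do not overlap. Their kept direction therefore follows largely from that choice, and nothing is concluded from it. Precision is limited by 2 to 3 libraries a group and by at most 91 counts at a low-count event in replicate 1.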
